A study of Mus musculus with 36 samples.

Results

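Chromatin accessibility was examined at 8 genes of the transforming growth factor beta (TGF-β) pathway in mouse CD4 T cells: the ligand gene Tgfb1, the receptor genes Tgfbr1, Tgfbr2 and Tgfbr3, the signal transducer gene Smad3, and the genes of the inhibitors Smad7, Ski and Skil. A peak of the deposited ATAC-seq table was counted for a gene when its midpoint lay nearest to the start of one of its protein-coding transcripts in GENCODE, or when it overlapped the gene body. This gave 243 of 71509 peaks, of which 73 belonged to Tgfbr2, 55 to Smad7, 47 to Tgfbr3, 30 to Smad3, 23 to Ski, 11 to Skil, and 2 each to Tgfb1 and Tgfbr1. All 243 were nearest to a start of their gene, 116 overlapped a gene body and 9 lay on a coding start. The farthest, at Tgfbr2, lay 251.7 kb from the start. All 243 passed the filter on low counts in both mouse lines. Their median width was 850 bp and their median GC content 48.2%, against 750 bp and 48.0% over all peaks.

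TGF-β is a cytokine made by Treg and many other cells that restrains T cell proliferation and effector differentiation and, with interleukin-2, favours the induction of Foxp3. The ligand binds the type II receptor (Tgfbr2), which activates the type I receptor (Tgfbr1), which in turn phosphorylates Smad2 and Smad3, so that these join Smad4 and bind DNA. The type III receptor, betaglycan (Tgfbr3), presents ligand without a kinase of its own. Smad7 blocks the activated receptor, and Ski and SnoN (the product of Skil) hold Smad complexes in a repressive state.

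The study asked how heterochromatin protein 1 (HP1), a reader of methylated lysine 9 of histone H3, shapes the response of conventional CD4 T cells (Tconv) to regulatory T cells (Treg). ATAC-seq, in which a transposase cuts and tags open DNA, was run on 36 libraries in 12 groups of 3: a knockout and a littermate wild-type arm of an HP1α line and of an HP1γ line, each as naive CD4 T cells, Tconv, and Tconv given together with Treg (Tconv + Treg). The HP1α knockout (KO) was a germline deletion made with CMV-cre, with litters from heterozygous parents. The HP1γ KO was made with floxed alleles and Cd4-cre, against floxed littermates without cre, all on a mixed 129/Sv and C57BL/6 background. Tconv were the allospecific cells carrying the Vβ6 receptor chain, sorted from irradiated hosts (CD45.1+ B6 or C57BL/6 J mice) weeks after a graft of C57BL/6 J and B6D2F1 bone marrow. All Tconv groups therefore came from irradiated, grafted hosts. The injected Treg had been expanded in culture with IL-2 and TGF-β1, so cells of these groups met a Treg product made in the presence of the ligand of this pathway.

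Stretches of 300 bases from the centres of 5 peaks are given here because the differences described further on turned on them. They were read from the plus strand of GRCm39. Capitals mark every match on either strand to CAGACA, a Smad-binding sequence whose reverse complement is TGTCTG, to its palindromic form GTCTAGAC, and to TGANTCA, the site of AP-1, a factor of T cell activation.
Smad3 intronic peak, chr9:63640056-63640355: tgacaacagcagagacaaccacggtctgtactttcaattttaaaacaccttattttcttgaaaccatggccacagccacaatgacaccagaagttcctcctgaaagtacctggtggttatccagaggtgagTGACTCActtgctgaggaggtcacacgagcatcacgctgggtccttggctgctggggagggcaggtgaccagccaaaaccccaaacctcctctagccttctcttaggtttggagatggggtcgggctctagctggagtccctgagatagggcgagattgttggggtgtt
Smad3 upstream peak A, chr9:63692986-63693285: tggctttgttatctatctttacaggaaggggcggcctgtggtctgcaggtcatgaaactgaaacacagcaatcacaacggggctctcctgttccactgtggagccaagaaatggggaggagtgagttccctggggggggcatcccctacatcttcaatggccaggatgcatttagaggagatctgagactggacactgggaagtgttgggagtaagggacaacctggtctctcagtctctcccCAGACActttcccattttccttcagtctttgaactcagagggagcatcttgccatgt
Smad3 upstream peak B, chr9:63722066-63722365: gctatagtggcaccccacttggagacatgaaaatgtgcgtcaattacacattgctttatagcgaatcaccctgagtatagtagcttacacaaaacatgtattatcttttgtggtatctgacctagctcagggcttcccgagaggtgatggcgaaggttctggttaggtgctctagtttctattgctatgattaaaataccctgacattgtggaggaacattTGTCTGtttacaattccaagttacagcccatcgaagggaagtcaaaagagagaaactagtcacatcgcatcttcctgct
Tgfbr2 upstream peak, chr9:116198091-116198390: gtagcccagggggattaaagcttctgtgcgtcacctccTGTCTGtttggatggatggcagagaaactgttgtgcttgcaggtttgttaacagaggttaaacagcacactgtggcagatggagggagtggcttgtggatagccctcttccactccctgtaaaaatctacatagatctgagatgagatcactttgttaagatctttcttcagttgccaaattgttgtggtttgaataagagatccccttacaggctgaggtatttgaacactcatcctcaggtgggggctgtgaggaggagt
Ski intronic peak, chr4:155255146-155255445: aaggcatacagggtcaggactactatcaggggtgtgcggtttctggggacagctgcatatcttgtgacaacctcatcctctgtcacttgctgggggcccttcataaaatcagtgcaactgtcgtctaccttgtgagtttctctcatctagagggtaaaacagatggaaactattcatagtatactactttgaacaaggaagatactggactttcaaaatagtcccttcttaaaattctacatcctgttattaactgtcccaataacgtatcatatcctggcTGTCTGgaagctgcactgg

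The Smad3 intronic stretch held 1 TGANTCA match, and each of the other 4 stretches held 1 CAGACA match. Of 2 further Smad3 peaks called with Treg in HP1α WT and HP1γ KO, the intronic peak at chr9:63656231-63657480 held 0 CAGACA matches in its central 300 bases and the peak 18.9 kb upstream held 4, next to a run of CA repeats. Over the central 300 bases of all 243 peaks, CAGACA was found in 31.3%, against 27.0% of all peaks of the table, and TGANTCA in 16.5% against 13%. The palindrome GTCTAGAC was found in 0 of the 243 and in 0.334% of all peaks. TGTGGT, the core of RUNX sites, was found in 30.0% of both sets, and TTTCC, a core shared by NFAT and ETS sites, in 59.3% against 63.6%. Smad7 peaks held CAGACA in 45.5% and TGANTCA in 20.0% of cases, and Smad3 peaks held each of them in 23.3%, for CAGACA below the share over all peaks. These are matches of letters and do not show that a factor was bound.

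Libraries held 1486053 to 96806542 reads in peaks. The HP1α WT Treg arm was shallow, with 12691169 and 1486053 reads for the 2 libraries used, and the single KO Treg library used held 50682500 reads. The study left out 3 further HP1α Treg libraries for quality (1 WT and 2 KO, with 3199447, 7124402 and 5726885 reads). In these, 44.6 to 46.8% of reads lay in peaks centred near a coding start, against 50.3 to 56.6% in the others. The 3 left-out libraries are shown here as values and enter only the fits named as using all HP1α libraries. A peak was called when the quasi-likelihood test of edgeR gave an adjusted p under 0.05, over all peaks, and a change of over 1 on the log2 scale, the thresholds of the study. For each Treg comparison, data were simulated with 200 peaks changed by 2 on the log2 scale. False calls made up a share above 0.05 of the calls in HP1α KO, HP1γ WT and HP1γ KO. They numbered 74, 39 and 48, beside 66%, 71% and 83% of the changed peaks recovered. In HP1α WT 4 calls were false and 41% of the changed peaks were recovered. Calls in HP1α KO, HP1γ WT and HP1γ KO may therefore hold more false ones than the threshold states. Peak levels are log2 counts-per-million (log2 CPM), one scale over all 36 libraries. Nothing in the labels says whether the libraries of a group came from separate animals, so p-values measure only the spread between these libraries. The peaks at the starts of Cbx5 and Cbx3, which encode HP1α and HP1γ, did not check the deletions: the knockouts differed there from WT by -0.11 to 0.13 log2 units. At the start of Cd4, the gene whose regulatory sequence drives the cre transgene of the HP1γ line, the mean was 707 CPM in HP1γ KO naive cells against 106 in HP1γ WT.

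The state of the 8 genes without Treg frames what followed. In the HP1α WT arm, Tconv against naive cells gave 40 higher and 89 lower calls among the 243 peaks (42.5% of all peaks were called, 24.9% higher and 17.5% lower), and in the HP1γ WT arm 42 higher and 102 lower (46.5% of all peaks, 24.5% higher and 22.0% lower). Smad3 gained accessibility: 19 of its 30 peaks were higher and 1 lower in the HP1α WT arm, and 21 higher and 2 lower in the HP1γ WT arm, with median log2 fold changes of 1.65 and 1.68. Both large receptor genes lost it. Of the 47 Tgfbr3 peaks, 38 were lower and 1 higher in the HP1α line, and 41 lower and 1 higher in the HP1γ line, with medians of -1.91 and -2.41. Of the 73 Tgfbr2 peaks, 29 were lower and 6 higher in the HP1α line and 34 lower and 5 higher in the HP1γ line. Smad7 had 15 lower and 6 higher of 55 in the HP1α line, and 18 lower and 6 higher in the HP1γ line.

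Single peaks show the scale. The Smad3 intronic peak (chr9:63639511-63640900) stood at 1.53, 1.53 and 1.78 log2 CPM in HP1α WT naive cells and at 4.93, 4.63 and 4.24 in Tconv, a log2 fold change of 3.18 ± 0.18 (SE, edgeR, adjusted p = 2.96e-10). In the HP1γ WT arm the fold change was 3.29 ± 0.26. Upstream peak B of Smad3 (chr9:63721971-63722460, 56.7 kb from the start) went from between -3.98 and -1.96 log2 CPM in HP1α WT naive cells to 2.77, 2.32 and 1.96 in Tconv, a fold change of 5.71 ± 0.45 on the log2 scale. It was thus close to closed in naive cells and open in every HP1α WT Tconv library. An intronic peak of Tgfbr3 (chr5:107348161-107351040) did the reverse, with 6.34, 6.30 and 6.33 log2 CPM in naive cells and 3.59, 3.91 and 4.17 in Tconv (-2.5 ± 0.14). An intronic peak of Tgfbr2 (chr9:115992481-115993990) stood at 4.93, 4.87 and 5.02 in HP1γ WT naive cells and at 1.42, 1.38 and 1.18 in Tconv (-3.57 ± 0.14). Naive and Tconv libraries did not overlap at any of these 4 peaks in the arms given, as at 61.4% of all peaks in the HP1α line and 75.5% in the HP1γ line.

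**Figure D1:**
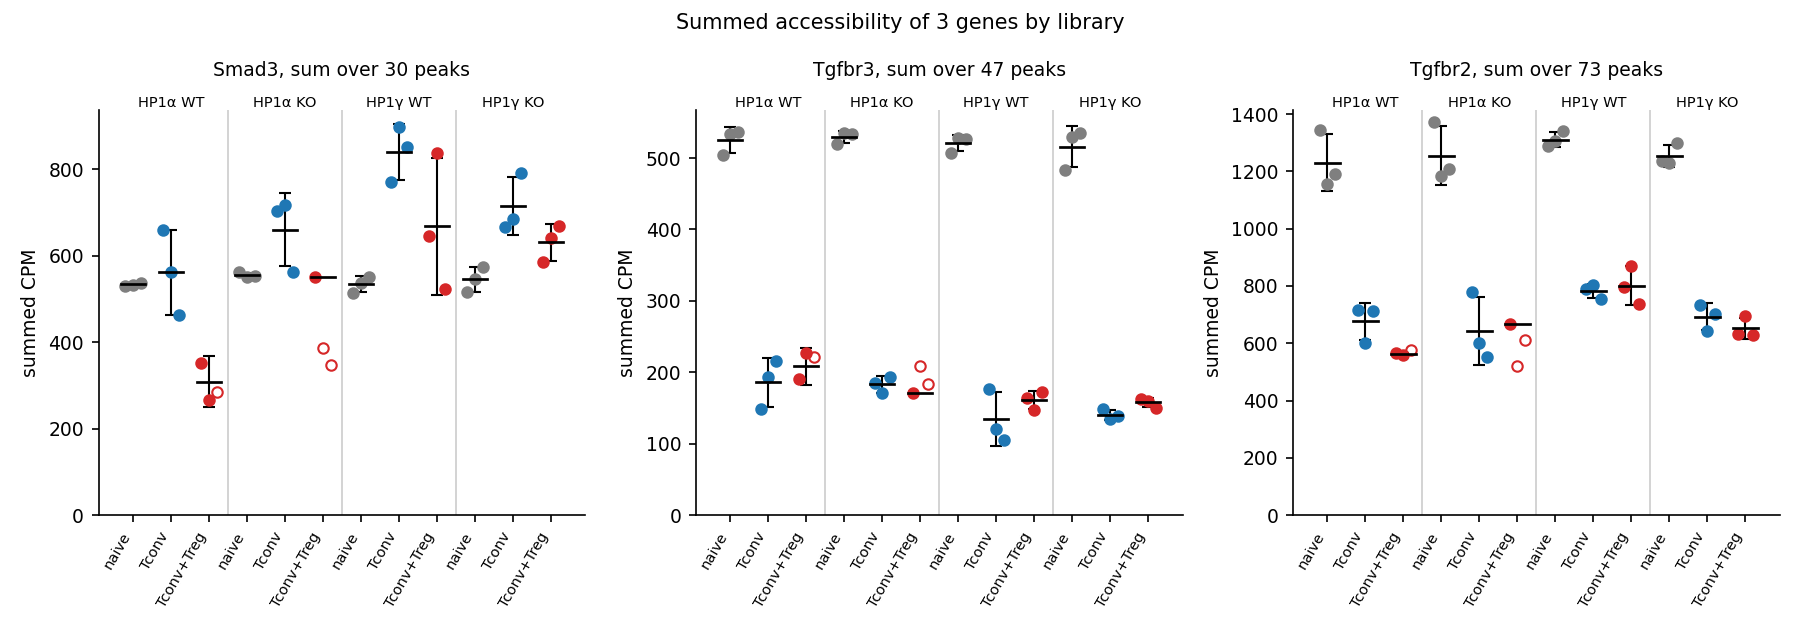
Reads of all peaks of Smad3 (30 peaks), Tgfbr3 (47) and Tgfbr2 (73), summed in each library as counts-per-million, by group. Points are libraries, bars the mean and SD of the libraries used, and open circles the HP1α libraries left out by the study. Tgfbr3 and Tgfbr2 sums are lower in Tconv than in naive cells in every arm, and the Smad3 sums of HP1α WT Tconv + Treg lie below those of its Tconv.

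Promoter peaks moved less. The promoter peak of Tgfbr3 (chr5:107434651-107437780) was lower in Tconv than in naive cells in both WT arms (-1.09 ± 0.13 and -1.47 ± 0.15), whereas the promoter peak of Tgfb1 (chr7:25385551-25390130) stood at 7.29 ± 0.11 log2 CPM (SD, n = 3) in HP1α WT naive cells and 7.18 ± 0.34 in Tconv. In the HP1γ WT arm it stood at 7.11 ± 0.08 and 7.75 ± 0.12, a difference under the fold threshold (0.71 ± 0.09). The promoter peak of Tgfbr1 (chr4:47351051-47354580) stood at 6.93 ± 0.12 and 6.45 ± 0.20 log2 CPM in HP1α WT naive cells and Tconv, and at 6.74 ± 0.03 and 6.69 ± 0.05 in HP1γ WT. The values that follow are from the HP1α WT arm. The promoter peak of Tgfbr2 (chr9:115994131-116005760) stood at 7.50 ± 0.17 and 6.84 ± 0.20. The promoters of Ski (chr4:155297661-155309240) and Skil (chr3:31147061-31151560) stood at 7.64 ± 0.22 and 7.71 ± 0.31 in naive cells and at 7.68 ± 0.17 and 7.59 ± 0.16 in Tconv. The Smad7 promoter peak, 24810 bp wide, stood at 8.94 ± 0.32 and 8.54 ± 0.12. These wide peaks differ in length and their levels are not compared between genes.

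With Treg, Smad3 was the gene at which most calls fell in the HP1α WT arm. Of the 243 peaks, 4 were higher and 9 lower with Treg (5.35%, against 6.77% of all peaks, 4.92% higher and 1.84% lower), and 8 of the 9 lower calls were Smad3 peaks. The 30 Smad3 peaks had a median log2 fold change of -1.07 with Treg, against 0.10 over all peaks, and 28 of the 30 were below 0, against 45.1% of all peaks. That count was 28 to 30 and the median -1.13 to -0.92 under 7 other scalings or sample sets. In bulk libraries, a change in the share of cells with an open site and a change in how open it is per cell cannot be told apart. The Smad3 sums over its 30 peaks were 659.9, 561.2 and 462.6 CPM in Tconv and 351.0 and 266.8 in Tconv + Treg, with 283.9 in the library left out, so the groups did not overlap.

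The Smad3 intronic peak was the peak of the smallest p. It stood at 4.93, 4.63 and 4.24 log2 CPM in HP1α WT Tconv and at 2.73 and 2.91 with Treg (2.26 in the library left out), a log2 fold change of -1.98 ± 0.33 (adjusted p = 0.00145, edgeR). The Treg libraries lay between naive cells and Tconv. The Smad3 promoter peak (chr9:63661521-63667270) stood at 7.19, 6.93 and 6.48 in Tconv and at 5.99 and 5.59 with Treg (5.64 left out), a change of -1.03 ± 0.21 (adjusted p = 0.00710), although it had not risen from naive cells (7.37, 7.31 and 7.34) to Tconv. Upstream peak A (chr9:63692721-63693550, 27.7 kb from the start) stood at 2.87, 2.83 and 2.06 without and 0.40 and 0.15 with Treg, a change of -2.45 ± 0.56 (adjusted p = 0.0115). The library left out stood at 2.26 there, inside the range without Treg. A further intronic peak (chr9:63656231-63657480), at its highest in naive cells (3.89, 4.12 and 3.97), went from 3.03, 3.10 and 2.55 to 1.05 and 1.12 with Treg (-1.95 ± 0.45). The library left out stood at 3.12, and with all HP1α libraries this peak was no longer called (-1.14, adjusted p = 0.0860). At all 4 peaks the libraries used with and without Treg did not overlap, as at 35.3% of all peaks.

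**Figure D2:**
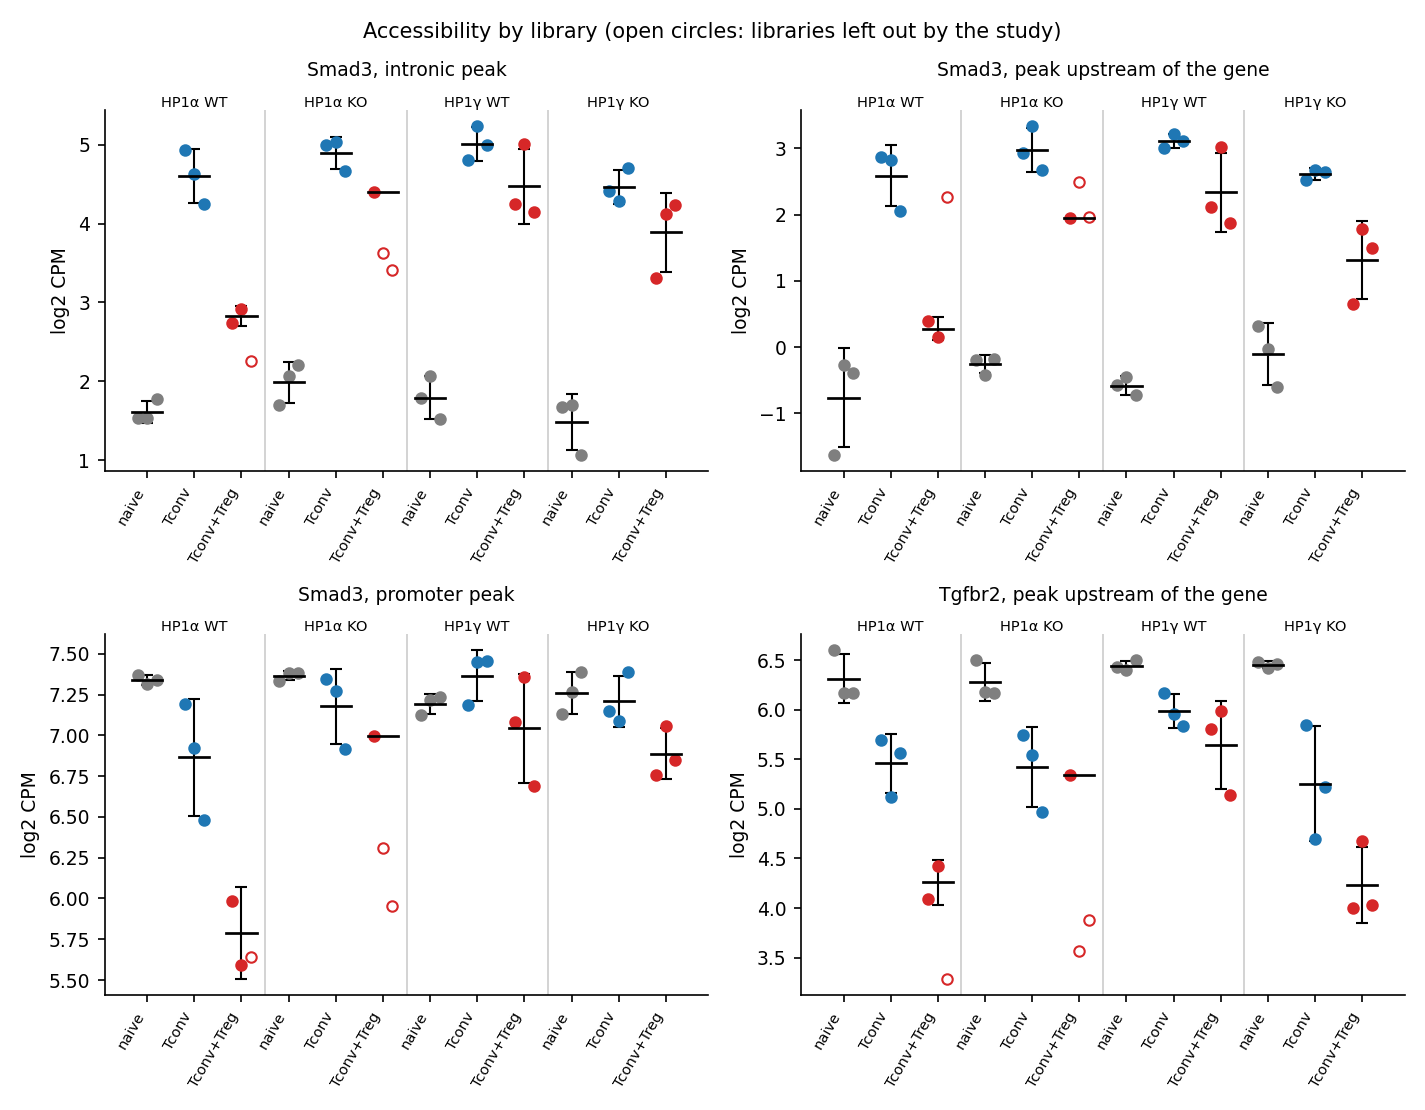
Log2 CPM by library at the Smad3 intronic peak, Smad3 upstream peak A, the Smad3 promoter peak and the Tgfbr2 upstream peak, in the 12 groups. Points are libraries, bars mean and SD of the libraries used, and open circles are left-out libraries; each panel has its own range. The 2 HP1α WT Tconv + Treg libraries used lie below all 3 Tconv libraries in each panel.

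Outside Smad3, the Tgfbr2 upstream peak (chr9:116197371-116199110, 193 kb from the start) stood at 5.70, 5.12 and 5.56 log2 CPM in HP1α WT Tconv and at 4.10 and 4.42 with Treg (3.29 left out), a change of -1.33 ± 0.36 (adjusted p = 0.0299). Higher with Treg were 2 Smad7 peaks, 1 Tgfbr3 peak and 1 Ski peak. At Smad7, the peak 152 kb upstream stood at 2.03, 2.57 and 2.37 without and 4.53 and 3.10 with Treg (2.17 ± 0.50, adjusted p = 0.0139). A second Smad7 peak, 157 kb upstream, was called at a log2 fold change of 2.86 with 1 of its 2 Treg libraries at 0 reads, and is uncertain. The Tgfbr3 intronic peak at chr5:107431311-107432380 stood at 1.87, 2.06 and 2.37 without and 3.24 and 2.43 with Treg (1.2 ± 0.30, adjusted p = 0.0206). The Ski intronic peak (chr4:155255081-155255510) stood at 0.05, 0.11 and 1.12 without and 1.74 and 1.70 with Treg (1.61 ± 0.48, adjusted p = 0.0494). The promoters of Tgfb1, Tgfbr1, Tgfbr2, Tgfbr3, Smad7, Ski and Skil were not called with Treg in any of the 4 arms.

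These calls rested on few reads. The count of 13 became 0 without Tconv + Treg replicate 1, which left the library of 1486053 reads alone, 2 without Tconv replicate 1, and 2 (both Smad3) with log2 depth as a covariate. Calls over all peaks fell as well, to 0, 2.06% and 2.42%. DESeq2 called 20 of the 243, 3 higher and 17 lower, against 5.12% and 4.39% of all peaks. The sort kept CD4+ Thy1.1- H-2Kd- cells with the Vβ6 chain, a gate that would remove B, myeloid and NK cells and the injected Thy1.1+ Treg. The 2 Treg libraries used nevertheless differed from Tconv in markers of other cells: the start peak of the B cell factor gene Pax5 stood at 13.3 to 17.1 CPM with and 4.55 to 6.29 without Treg, while the B cell markers Cd79a, Ms4a1 and Cd22 had no start peak. The 7 CD4 T cell markers summed to 557 to 801 CPM with and 760 to 981 without, the 3 of 5 myeloid markers with a start peak to 17.1 to 17.4 and 24.7 to 28.8. Klrk1, the only 1 of 3 NK cell markers with a start peak, stood at 0.0 to 2.18 CPM with and 4.82 to 16.5 without Treg (-2.35, adjusted p = 0.0522, edgeR). The 6 Treg markers summed to 265 to 370 CPM with and 220 to 308 without Treg. Among them Foxp3 did not pass (-0.18), Ikzf2 was higher (1.06), Ctla4 did not pass the fold threshold (0.95) and Il2ra was lower (-1.55). The Foxp3 start peak, read here and in the other arms, also held the start of Ppp1r3f. It stood at 141 CPM in HP1α WT naive cells and 79.8 in Tconv, so its value does not bear on Foxp3 alone. The part of the marker differences in the peak values was not tested.

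In the HP1α KO arm, where 1 Treg library was used, 0 peaks were higher and 2 lower with Treg (0.823% of the 243, against 0.548% of all peaks, 0.284% lower), both at Smad3. A single library has no spread of its own, so the spread in this test came from the other groups of the fit, and the lone library is assumed to vary like them. Upstream peak B stood at 3.24, 2.67 and 2.16 log2 CPM without and at 1.15 with Treg (1.56 and 1.22 in the libraries left out), a change of -1.69 ± 0.36 (adjusted p = 0.0306). All 3 Treg libraries, left out or not, lay below the Tconv libraries, and the library used lay apart from Tconv at 38.9% of all peaks. An intronic peak (chr9:63653121-63653540) stood at 1.08, 2.24 and 1.82 without and at -0.72 with Treg (-2.55 ± 0.57, adjusted p = 0.0475), but the left-out libraries stood at 1.56, inside the range without Treg, and at 0.89, just below it. The 30 Smad3 peaks had a median of -0.45, with 28 below 0 against 44.2% of all peaks. With all HP1α libraries the counts for the 243 were again 0 and 2 (1.45% of all peaks were called), the Smad3 median was -0.50 with 26 of 30 below 0, and 1 of the 2 peaks was shared. The count became 0 with DESeq2 (101 of all peaks), with the trended dispersion of edgeR and in a fit of the KO groups alone (0 of all peaks in both), 1 without Tconv replicate 1 and 4 without Tconv replicate 3 (0.973% and 0.895% of all peaks), and 4 with the replicate block (1.2%). Leaving KO Tconv + Treg replicate 1 out of the fit with all libraries gave 48 higher and 13 lower calls, and 15.1% higher and 5.96% lower calls over all peaks.

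In the HP1γ WT arm, with 3 libraries in each group, 1 of 243 peaks was called with Treg (0.412%, against 0.137% of all peaks, 0.0671% higher), and it was an intronic Tgfbr3 peak (chr5:107370421-107371760). It stood at 4.23, 4.30 and 4.15 log2 CPM in naive cells, at -0.07, -0.60 and -0.25 in Tconv and at 1.56, 1.35 and 1.13 with Treg, a change of 1.63 ± 0.32 (adjusted p = 0.0483). All 3 Treg libraries lay between naive cells and Tconv. Groups with and without Treg were apart at 22.7% of all peaks. Of the 47 Tgfbr3 peaks, 44 were above 0, with a median of 0.66, against a median of 0.03 over all peaks, and this count was 41 to 46 under 5 other scalings. In the HP1α WT arm 40 of 47 were above 0 (median 0.64), but the median was -0.02 with log2 depth as a covariate. In the HP1α KO arm the median was 0.10, and -0.05 to 0.47 under 7 other scalings or sample sets, with 11 to 26 peaks below 0. In the HP1γ KO arm it was 0.01, and -0.01 to 0.07 under 5 other scalings. The Smad3 peaks lay below 0 at 28 of 30 (46.9% of all peaks) with a smaller median, -0.34, and none was called. The Smad3 intronic peak stood, in replicate order, at 4.81, 5.23 and 4.99 without and 4.25, 5.02 and 4.14 with Treg. The groups overlapped, though each Treg library lay below the Tconv library of its number (-0.47 ± 0.22, edgeR, adjusted p = 0.227). DESeq2 called 17 of the 243 here (3.26% of all peaks), the trended dispersion of edgeR 4 (0.959%) and loess offsets on abundance 3 (1.06%), and log2 depth as a covariate or a fit of the WT groups alone called 0 (0.0014% and 0 of all peaks). Replicate numbers were taken to pair these libraries, from correlations of same-numbered libraries of 0.202 or more. The labels state no pairing. With the numbers as a block 2 peaks were called (0.729% of all peaks). They were the Tgfbr3 peak and the intronic Smad3 peak at chr9:63653121-63653540 (-1.59, edgeR, adjusted p = 0.0414). The single call was lost without any of 4 of the 6 libraries (Tconv replicate 1 or 2, Tconv + Treg replicate 1 or 3), and the count was 4 without Tconv replicate 3 (1.21% of all peaks) or Tconv + Treg replicate 2 (0.895%).

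**Figure D3:**
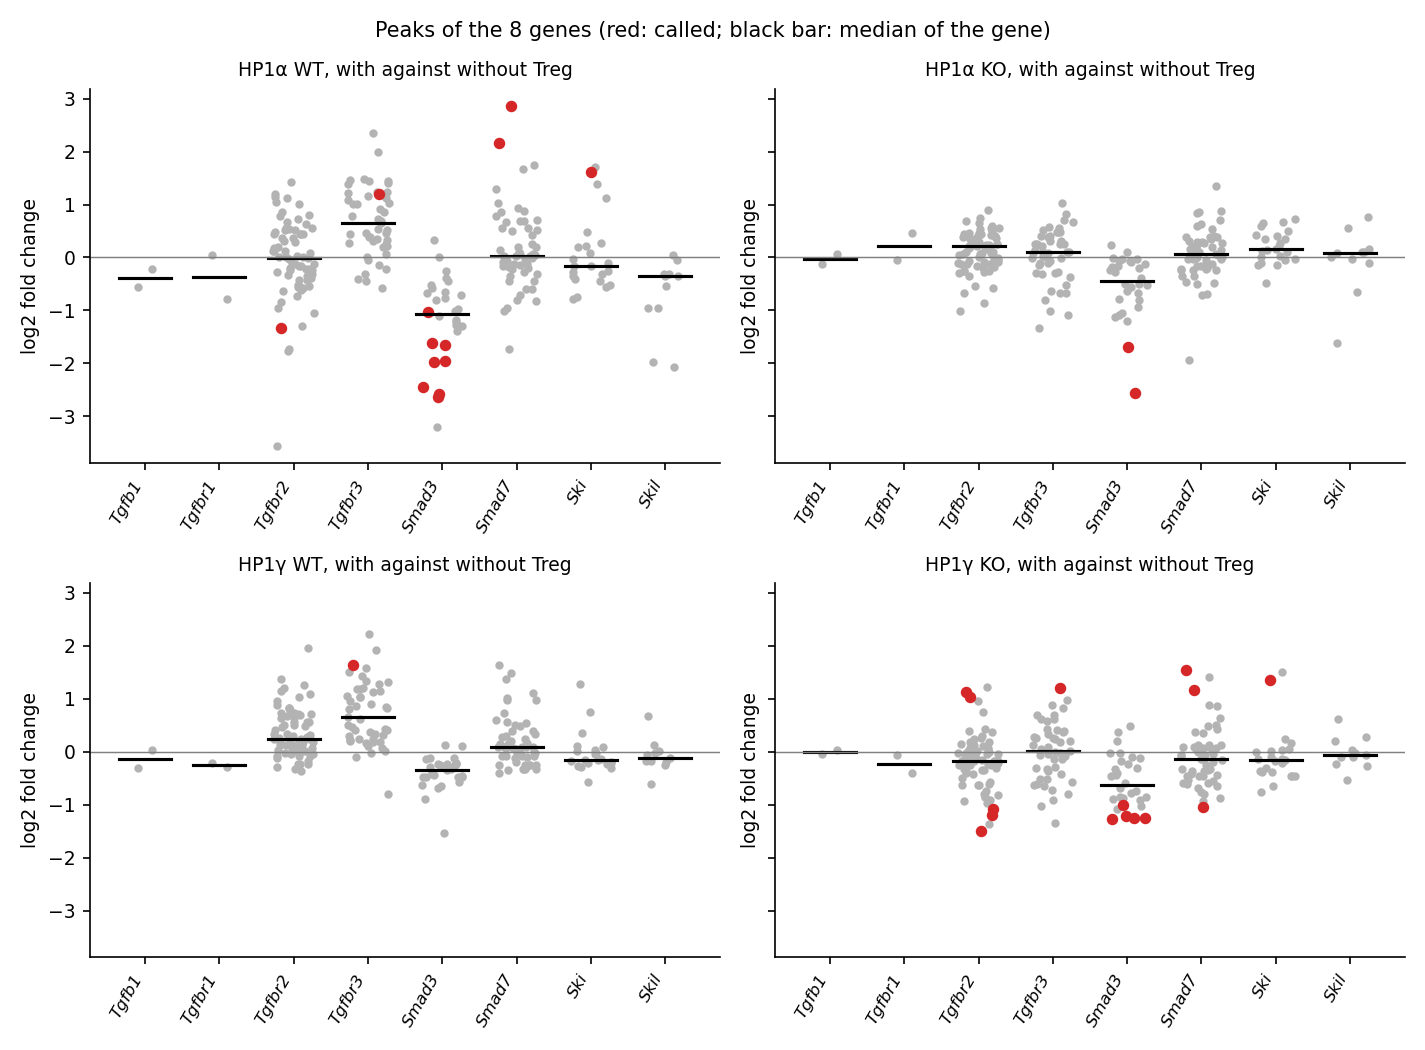
Log2 fold change with against without Treg for each of the 243 peaks, by gene, in the 4 arms. Points are peaks (red: called), black bars the median of the gene. The Smad3 medians lie below 0 in all 4 arms (-1.07, -0.45, -0.34 and -0.64), and the Tgfbr3 medians of the 2 WT arms lie at 0.64 and 0.66.

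In the HP1γ KO arm, 6 peaks were higher and 9 lower with Treg (6.17%, against 8.15% of all peaks, 6.1% higher and 2.06% lower). Smad3 accounted for 5 of the 9 lower calls, Tgfbr2 for 3 and Smad7 for 1. Upstream peak A of Smad3 stood at 2.52, 2.68 and 2.65 log2 CPM without and at 1.79, 1.49 and 0.65 with Treg, a change of -1.27 ± 0.26 (adjusted p = 0.00383). The groups did not overlap, as at 22.3% of all peaks. The Tgfbr2 upstream peak stood at 5.85, 4.69 and 5.22 without and at 4.67, 4.03 and 4.0 with Treg (-1.08 ± 0.24, adjusted p = 0.00642). Lowest by p was a Smad7 peak 102 kb downstream of the start, at 2.42, 2.51 and 2.5 without and 1.55, 1.67 and 1.18 with Treg (-1.04 ± 0.20, adjusted p = 0.00199). A short Tgfbr2 peak (chr9:116190251-116190450) stood at 0.37, -0.16 and -0.03 without and at -1.41, -1.37 and -1.15 with Treg (-1.49 ± 0.34).

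Higher with Treg in the HP1γ KO arm was the Ski intronic peak, at 0.35, -0.92 and -0.70 log2 CPM without and 0.93, 0.46 and 1.38 with Treg (1.35 ± 0.28, adjusted p = 0.00356). A Smad7 peak 115 kb downstream stood at 2.05, 2.48 and 2.26 without and 2.60, 3.36 and 3.97 with Treg (1.17 ± 0.27, adjusted p = 0.00735). Both sets of groups were apart. A Tgfbr2 peak at chr9:116165091-116165330 (1.13 ± 0.28) and an intronic Tgfbr3 peak at chr5:107338531-107339010 (1.2 ± 0.36) were also higher. The Smad3 median was -0.64, with 27 of 30 peaks below 0 (52.3% of all peaks). The count of 15 became 2 without Tconv + Treg replicate 1, 27 without Tconv + Treg replicate 2, 7 with the trended dispersion and 0 in a fit of the KO groups alone, where 2.98%, 13.1%, 4.69% and 0.856% of all peaks were called. With loess offsets on abundance the split was 9 higher and 8 lower, against 5.86% and 2.03% of all peaks. The Treg markers summed to 388 to 416 CPM with and 288 to 367 without Treg here, with Ikzf2 at 0.52, Ctla4 at 0.54, Il2ra at -0.65 and Foxp3 at -0.08 on the log2 scale (adjusted p = 0.0246, 0.0362, 0.0206 and 0.537, edgeR), and Pax5 stood at 8.28 to 11 against 5.03 to 6.41. The myeloid gene Itgam was lower (-1.30, adjusted p = 0.00879, edgeR), with means of 1.05 CPM with and 2.4 without Treg, and Klrk1 had means of 1.31 and 2.9. Their part was not tested.

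The HP1α WT and HP1γ KO arms share no library. Of their 13 and 15 called peaks, 6 were called in both, all 6 in the same direction, which is 46.2% and 40.0% of the lists. Over all peaks the shares were 47.4% and 39.3%, close to those of the 243. Of the 6 peaks, 3 were at Smad3, among them upstream peak A, and the others were the Tgfbr2 upstream peak, the Ski intronic peak and the Smad7 peak 152 kb upstream.

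**Figure D4:**
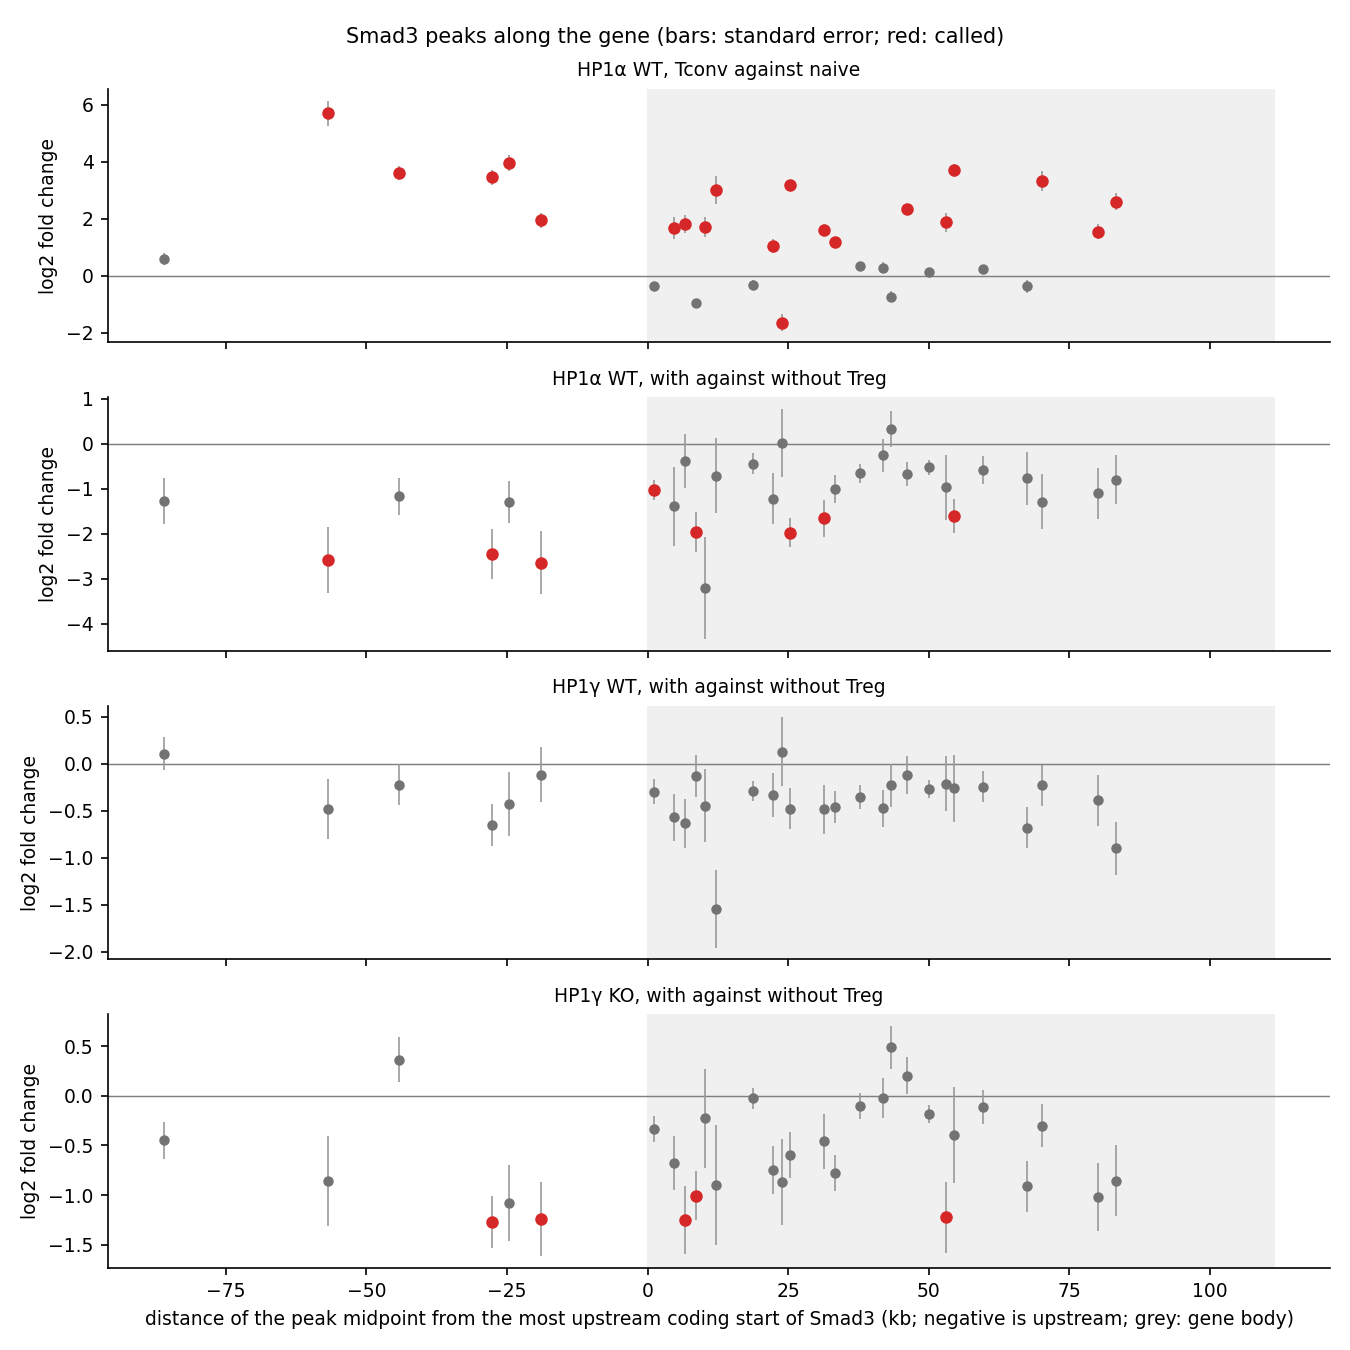
Log2 fold change (points; bars, SE) of the 30 Smad3 peaks against the distance of the peak from the most upstream coding start, in kb, for Tconv against naive cells in the HP1α WT arm and for Treg in 3 arms; each panel has its own range, and the gene body is shaded. Called peaks (red) lie upstream and within the gene, and 28, 28 and 27 of the 30 peaks lie below 0 with Treg in HP1α WT, HP1γ WT and HP1γ KO.

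Whether the Treg difference itself depended on genotype was tested with an interaction term, and 0 of 243 peaks passed in either line (0.0461% and 0.0014% of all peaks). An unadjusted p under 0.05 was found at 15 peaks in the HP1α line and 50 in the HP1γ line, where 10.3% and 12.8% of all peaks had one. DESeq2 called 1 and 9 of the 243, and 0.295% and 1.12% of all peaks. Smallest by p in the HP1α line was the Smad3 intronic peak, which was not called. Its change with Treg was -1.98 in WT and -0.51 in KO, a difference of 1.47 ± 0.40. The KO change rests on 1 Treg library at 4.40 log2 CPM, and the KO libraries left out stood lower, at 3.62 and 3.41. The peak of smallest p in the HP1γ line was at Tgfbr2 (chr9:116077091-116077920). It stood at 0.65, 0.38 and 0.49 log2 CPM in WT Tconv and 1.39, 1.17 and 1.21 with Treg. In KO it stood at 0.65, 1.2 and 0.54 in Tconv and 0.06, -0.35 and -0.01 with Treg. The WT libraries were higher and the KO libraries lower with Treg, by a difference of -1.57 ± 0.37 (adjusted p = 0.263, not called). DESeq2 called this peak (adjusted p = 0.000476).

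Set against WT in the presence of Treg, HP1γ KO cells were lower at many of these peaks. Of the 243, 36 were lower and 2 higher (15.6% called, against 11.9% of all peaks, 5.38% lower and 6.48% higher). The median over the 243 was -0.51, against -0.02 over all peaks, and 194 were below 0. By gene, 13 of 73 Tgfbr2 peaks, 8 of 55 Smad7 peaks, 7 of 30 Smad3 peaks, 5 of 23 Ski peaks, 2 of 11 Skil peaks and 1 of 47 Tgfbr3 peaks were lower, and 1 Tgfbr2 and 1 Smad7 peak were higher. Neither Tgfb1 nor Tgfbr1 had a call. Tgfbr3, with 2.13% of its peaks called, was below the share over all peaks, and Smad3, Tgfbr2, Smad7, Ski and Skil were above it. The Tgfbr2 upstream peak stood at 5.14, 5.80 and 5.98 log2 CPM in WT and 4.67, 4.03 and 4.0 in KO (-1.43 ± 0.24, adjusted p = 0.000761). A Tgfbr2 peak 6.19 kb upstream of the start (chr9:116010421-116011560) stood at 3.66, 3.76 and 4.11 in WT and 2.92, 2.55 and 1.96 in KO (-1.35 ± 0.23, adjusted p = 0.000861). Neither overlapped, as at 31.8% of all peaks. The Smad7 peak 115 kb downstream stood at 1.73, 2.04 and 2.56 in WT and 2.60, 3.36 and 3.97 in KO (1.23 ± 0.29, adjusted p = 0.00647). A distal Tgfbr2 peak (chr9:116161671-116162140) was also higher (1.0 ± 0.27, adjusted p = 0.0143). The 38 calls became 8 without KO Tconv + Treg replicate 1 and 11 without WT Tconv + Treg replicate 2, where 5.2% and 5.21% of all peaks were called. Markers also differed between these groups. The 6 Treg markers summed to 388 to 416 CPM in KO and 266 to 321 in WT. Means in KO and WT were 167 and 89.2 at Ctla4 and 74.0 and 43.0 at Ikzf2. Il2ra was lower in KO (17.3 and 26.5). Foxp3 (97.8 and 100), Tnfrsf18 (39.2 and 38.2) and Lrrc32 (4.7 and 4.33) differed little. Klrk1 had means of 1.31 and 7.1. Their part in the KO values was not tested.

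**Figure D5:**
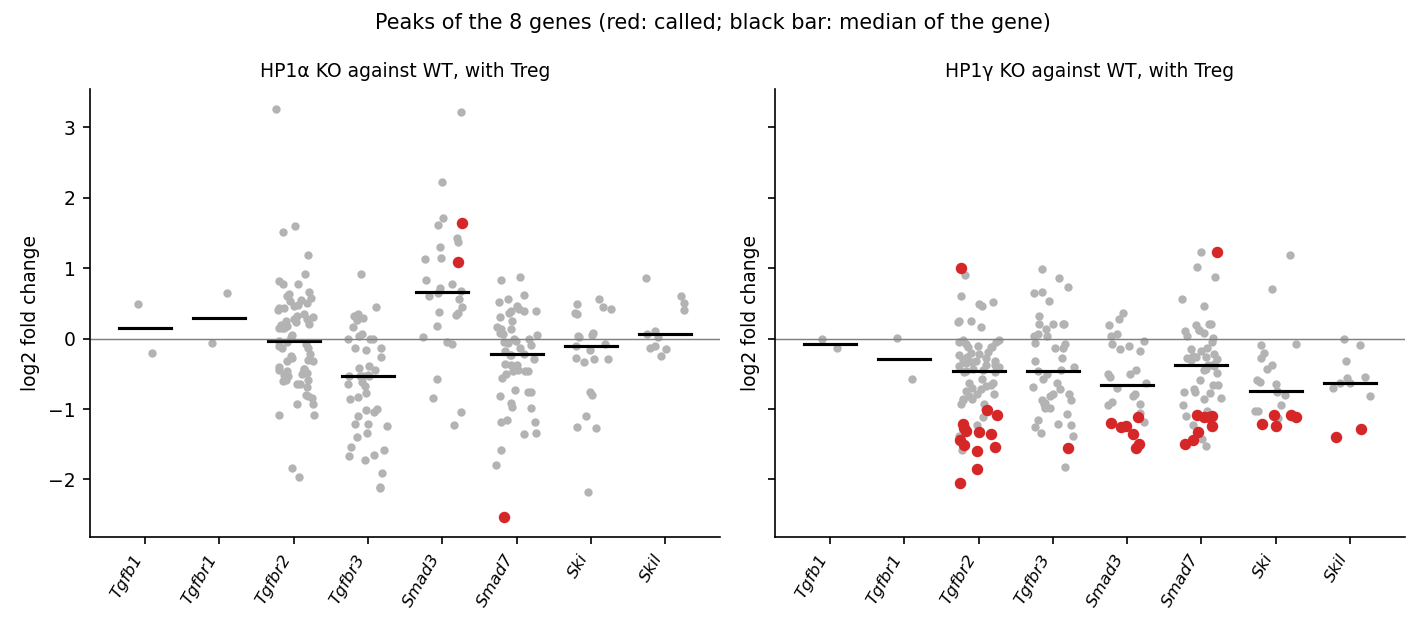
Log2 fold change of KO against WT Tconv + Treg for each of the 243 peaks, by gene, in the HP1α and HP1γ lines. Points are peaks (red: called), black bars the median of the gene. The Smad3 median is 0.66 in the HP1α line and -0.67 in the HP1γ line, and 38 peaks are called in the HP1γ line against 3 in the HP1α line.

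In the HP1α line the same comparison gave 2 higher and 1 lower call (1.23%, against 1.63% of all peaks, 0.218% higher and 1.42% lower). Both higher peaks were at Smad3. The Smad3 intronic peak stood at 2.73 and 2.91 log2 CPM in WT and 4.40 in KO, a difference of 1.64 ± 0.36 (adjusted p = 0.0274), and the promoter peak at 5.99 and 5.59 in WT and 6.99 in KO (1.09 ± 0.25, adjusted p = 0.0335). The left-out KO libraries, at 3.62 and 3.41 for the intronic peak and 6.31 and 5.95 for the promoter, lay lower than the KO library used. With all HP1α libraries neither was called, and 0.741% of all peaks were (adjusted p = 0.0680 and 0.291). The Smad3 median was 0.66 with 24 of 30 above 0, and 0.54 with all libraries. At Smad7, the peak 152 kb upstream was lower in KO, at 1.85 against 4.53 and 3.10 (-2.53 ± 0.60, adjusted p = 0.0387), and stayed lower with all libraries (-2.04, adjusted p = 0.0471). The count was 8 with DESeq2 (3.68% of all peaks), 5 with the replicate block (2.68%) and 1 with the trended dispersion (0.14%). Leaving out either WT Treg library gave 0 calls (0 and 0.729% of all peaks). The single KO library against 2 WT libraries left groups that did not overlap at 65.2% of all peaks. Pax5 stood at 5.21 CPM in the KO library and a mean of 15.2 in WT, and Klrk1 at 6.43 and 1.09. The 7 CD4 T cell markers summed to 914 in KO and 557 to 801 in WT. Of the 6 Treg markers, Il2ra (22.9 and 7.94), Foxp3 (81.3 and 66.5) and Tnfrsf18 (27.3 and 26.4) stood higher in KO. Ctla4 (98.8 and 137), Ikzf2 (59.4 and 70.9) and Lrrc32 (3.85 and 8.61) stood lower. The part of these differences was not tested.

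Without Treg, the genotypes differed at few of these peaks. In naive cells HP1α KO gave 0 calls (0.00559% of all peaks) and HP1γ KO 1 (0.412%, against 0.14% of all peaks, 0.133% higher). Before adjustment, 2 and 16 peaks had a p under 0.05 (1.17% and 8.98% of all peaks), and DESeq2 called 0 and 1 (0.00979% and 3.27% of all peaks). The HP1γ call was a 280 bp peak in the Tgfbr2 upstream region (chr9:116136251-116136530), at -1.96, -1.07 and -1.34 log2 CPM in WT and 1.82, 1.64 and 1.86 in KO (3.36 ± 0.24, adjusted p = 4.62e-07). It differed by 1.29 ± 0.41 in Tconv (adjusted p = 0.0692) and by -0.63 ± 0.47 with Treg, neither called. In Tconv, HP1α KO gave 0 calls (0.021% of all peaks). Before adjustment 21 peaks had a p under 0.05, as did 4.82% of all peaks, and DESeq2 called 0, against 0.0168% of all peaks. HP1γ KO gave 4, all lower (1.65%, against 3.35% of all peaks, 1.66% lower). The 2 of smallest p were at Skil: a peak 10.6 kb upstream (chr3:31138001-31138440) at 2.27, 2.65 and 1.48 in WT and 0.84, 0.23 and 0.19 in KO (-1.79 ± 0.32, adjusted p = 0.00340), and an intronic peak (chr3:31159241-31159470; -1.37 ± 0.30, adjusted p = 0.0119). Both were lower also with Treg (-1.28 ± 0.38 and -1.39 ± 0.35). The 4 calls became 1 without WT Tconv replicate 1 or KO Tconv replicate 3 (1.78% and 1.34% of all peaks), 2 without WT Tconv replicate 2 (1.5%), 13 without KO Tconv replicate 1 (4.85%) and 17 without WT Tconv replicate 3 (5.3%), and 7 with the replicate block (3.59%) and 2 with the trended dispersion (1.81%). All 30 Smad3 peaks were below 0 in HP1γ KO Tconv, with a median of -0.37, against 47.0% of all peaks below 0 and a median of 0.02.

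Other genes of the pathway were read from a list of 44 genes, of which 43 had peaks, 475 in all. With Treg, 37 of the 475 were higher and 14 lower in HP1α WT (10.7%), 2 higher and 5 lower in HP1α KO (1.47%), 3 higher and 0 lower in HP1γ WT (0.632%), and 39 higher and 8 lower in HP1γ KO (9.89%), where the shares over all peaks were 6.77%, 0.548%, 0.137% and 8.15%. In HP1α WT, 11 peaks were higher and 3 lower of 76 at ligand and activation genes, 4 and 0 of 54 at receptor genes, 2 and 0 of 47 at SMAD genes, 14 and 1 of 151 at regulator genes, and 6 and 10 of 147 at genes that respond to TGF-β in T cells. In HP1γ KO the same groups had 9 and 3, 5 and 2, 1 and 0, 13 and 1, and 11 and 2. The higher calls of HP1α WT were led by genes of the integrin that releases active TGF-β from its latent form: the start peak of Itgb8 (3.24 ± 0.35, adjusted p = 4.04e-05) and an intronic peak of Itgav (3.44 ± 0.38, adjusted p = 5.5e-05). Its lower calls were led by the start peak of Furin, the protease that cleaves the TGF-β precursor (-1.53 ± 0.26, adjusted p = 0.00170), and an intronic peak of the transcription factor gene Runx1 (-1.58 ± 0.28). In HP1γ WT and HP1γ KO, the highest calls included an intronic peak of Ldlrad4, an inhibitor of Smad phosphorylation (1.53 ± 0.30 and 1.77 ± 0.23, adjusted p = 0.0478 and 0.000147). It was also higher in HP1α KO (1.40 ± 0.29), where 1 Treg library was used. Lower in that arm were peaks counted for Cdkn1a (-2.52 ± 0.47), Lrrc32 (-1.35 ± 0.28) and Runx1 (-1.81 ± 0.38). A peak upstream of Cdkn2b, a cell cycle inhibitor gene induced by TGF-β, was higher in HP1γ KO (2.06 ± 0.32, adjusted p = 0.000283). Of the 16 Cdkn2b peaks, 5 were higher and 0 lower in HP1γ KO, and the same counts held in HP1α WT. Cdkn1a, in the same group of genes that respond to TGF-β, went the other way in HP1α WT. Of its 7 peaks, 0 were higher and 2 lower there (median -1.08), and 0 were called in HP1γ KO (median -0.24). Peaks of the activin gene Inhba (-2.01 ± 0.36) and the activin receptor gene Acvr2a (-1.55 ± 0.29) were lower in HP1γ KO. Under the interaction terms 0 of the 475 peaks passed in either line.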

How the data were processed

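ATAC-seq had been made from 36 libraries. The authors trimmed reads with Trim Galore 0.6.7, aligned them to GRCm39 with BWA-MEM 2, called peaks per sample with HMMRATAC, merged them into a consensus set, and deposited unnormalised read counts per interval and library from featureCounts 2.0.3. Of 71512 intervals, 3 without width were left out. The RNA-seq of the study was not used here. A listed B cell marker is not reported here.

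Members and lists were chosen with earlier results of these data known. Counts were fitted across all peaks with the quasi-likelihood test of edgeR 4.0.16 in R 4.3.3 (TMM scaling, filterByExpr, the adjusted likelihood option in place of the legacy one), with all groups of a line in 1 fit and p-values adjusted by Benjamini-Hochberg. As in the study, 3 HP1α Treg libraries were left out, leaving 15 for HP1α and 18 for HP1γ. The thresholds for a call were 0.05 for the adjusted p and 1 for the size of the log2 fold change. Levels used a prior count of 2. Fold changes with the WT or Tconv group in common share those libraries. The biological coefficient of variation was 26.6% in the HP1α fit and 22.2% in the HP1γ fit. The test was run on simulated data for the 4 Treg comparisons, where the share of false calls was above the adjusted p threshold in HP1α KO, HP1γ WT and HP1γ KO and below it in HP1α WT.

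Named peaks were the promoter peak of each gene, up to 4 calls in each direction for Treg comparisons and interactions by smallest p (the smallest-p peak where none was called), and up to 2 for the other comparisons. For other pathway genes up to 3 were taken. A peak that one comparison named is also given in others. Motifs were searched in the central 300 bases of GRCm39. Alternatives were library size scaling, DESeq2 1.42.0, no filter, loess offsets on abundance or GC content, log2 depth as a covariate, the trended dispersion of edgeR, only the groups compared, all HP1α libraries, narrower membership, a replicate block, and each library left out. Replicate numbers were taken to pair libraries where deviations of same-numbered libraries correlated above 0.1 in every pair. This held for the Treg comparison in HP1γ WT (lowest correlation 0.202), for HP1γ KO against WT with Treg (0.147) and for HP1α KO against WT naive cells (0.247).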

Additional observations from a re-analysis of the deposited data

Results flagged for a closer look

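Of the 41 peaks of the 8 genes that were called in either line, KO and WT libraries with Treg were apart in opposite directions in the 2 lines at 11 (26.8%; 5 at Tgfbr2, 3 at Smad3, 2 at Smad7 and 1 at Ski). Over all peaks called in either line this held at 47.7%. With the HP1α libraries left out by the study counted too, it held at 2 of the 41 (4.88%, against 16.1% over all peaks called in either line), described here. At these 2 Smad7 peaks the difference of KO from WT with Treg went opposite ways in the HP1α and HP1γ lines, with every KO library on 1 side of every WT library in each line. The difference between the lines was not tested, and the HP1α fold changes rest on a single KO library. At the peak 3.69 kb upstream of the start, HP1α libraries stood at 3.07 and 2.11 log2 CPM in WT and 3.35 in KO (0.39, edgeR, adjusted p = 0.768), and HP1γ libraries at 3.51, 4.06 and 4.41 in WT and 3.06, 2.84 and 3.03 in KO (-1.10), so that the log2 fold changes differed by 1.49. At the peak 115 kb downstream, the log2 fold change was -0.37 in the HP1α line (edgeR, adjusted p = 0.731) and 1.23 in the HP1γ line, a difference of -1.60. The first of these peaks was chosen after its values were seen.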

How the results depend on the processing

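Values here count called peaks among the 243, with the share of all peaks called in the same fit in parentheses. The 10 kb limit counts a subset of the 243 in the main fit, among them the 116 that overlap a gene body. Its counts can therefore only be equal or lower. With Treg in HP1α WT, 13 (6.77%), DESeq2 gave 20 (9.51%), log2 depth 2 (2.42%), all HP1α libraries with log2 depth 5 (3.01%), and peaks within 10 kb of the gene body 7 in the same fit, and loess offsets on abundance split the calls into 2 higher and 9 lower (5.06% and 1.15%). With Treg in HP1α KO, 2 (0.548%), DESeq2 gave 0 (0.141%), the trended dispersion and only the groups compared 0 (0 of all peaks), loess on abundance 1 (0.482%), loess on GC 1 (0.489%), the 10 kb limit 1, and the replicate block 4 (1.2%). With Treg in HP1γ WT, 1 (0.137%), DESeq2 gave 17 (3.26%), the block 2 alone (0.729%) or with GC offsets (0.734%), loess on abundance 3 (1.06%), the trended dispersion 4 (0.959%), log2 depth 0 (0.0014%) and only the groups compared 0 (0 of all peaks). With Treg in HP1γ KO, 15 (8.15%), the trended dispersion gave 7 (4.69%), the 10 kb limit 6, only the groups compared 0 (0.856%), and the block 19 (8.89%). The interactions, 0 and 0 (0.0461% and 0.0014%), gave 1 and 9 with DESeq2 (0.295% and 1.12%). KO against WT with Treg in HP1α, 3 (1.63%), gave 8 with DESeq2 (3.68%), 5 with the block (2.68%), and 1 with the trended dispersion (0.14%), with all libraries (0.741%), and with all libraries and log2 depth (0.524%). KO against WT Tconv in HP1γ, 4 (3.35%), gave 7 with the block (3.59%) and 2 with the trended dispersion (1.81%). KO against WT with Treg in HP1γ, 38 (11.9%), gave 41 with the block (12.7%). In each case the cause was not tested. Outside the 3 comparisons where the numbers were taken to pair libraries, the block rests on a shared number alone.

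Leaving out 1 library gave 0 to 15 calls with Treg in HP1α WT (0 to 8.11% of all peaks), 1 to 4 in HP1α KO (0.498 to 0.973%), 0 to 4 in HP1γ WT (0.0014 to 1.21%) and 2 to 27 in HP1γ KO (2.98 to 13.1%). It gave 0 to 0 and 0 to 1 for the interactions (0 to 0.173% and 0 to 0.399%), 0 to 0 for KO against WT with Treg in HP1α (0 to 0.729%), 1 to 17 and 8 to 55 for HP1γ KO against WT in Tconv and with Treg (1.34 to 5.3% and 5.2 to 16.2%), and 91 to 128 and 141 to 147 for Tconv against naive cells (37.1 to 42.0% and 44.7 to 47.2%). With all HP1α libraries, leaving out 1 gave 0 to 18, 1 to 61 and 0 to 2 for Treg in WT, Treg in KO, and KO against WT with Treg (0.00699 to 10.5%, 0.864 to 21.1% and 0 to 1.07% of all peaks). For Treg in WT these were 0 without WT Tconv + Treg replicate 1 and 8 without replicate 2, against 14. For KO against WT they were 0 without any WT replicate or KO replicate 1 and 2 without KO replicate 2 or 3, against 1. The 1 call of the HP1γ interaction appeared without KO Tconv + Treg replicate 2. At single named peaks, 419 alternative values kept direction and call, 141 kept direction and lost the call, and 1 turned: the Smad7 peak 157 kb upstream, whose log2 fold change ranged from -6.15 (without WT Tconv + Treg replicate 1) to 3.02 (without WT Tconv replicate 1). The 419 include 37 from the fits without the filter on low counts, which tell little because that filter removed hardly any peak. The shallower library of the HP1α WT Treg arm had 8853 peaks of the table at 0 reads, where a lower level is not detectable.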
